A study of Canis lupus familiaris with 6 samples.

Results

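The melanosome and pigment genes described here are MITF, PMEL, TYR, TYRP1, DCT, MLANA, GPNMB, RAB38, RAB27A and MLPH, 10 genes out of 30951 gene rows. They were chosen by name, as rows whose symbol is in this list. All 10 were listed, each as a single row, and 7 had enough counts to be tested: MITF, PMEL, TYRP1, GPNMB, RAB38, RAB27A and MLPH. TYR, DCT and MLANA did not. RNA was sequenced from CMM2 and CMM12, both canine melanoma cell lines. Each line gave 1 control library, with the genotype WT, and 2 libraries of podoplanin KO lines, titled KO#1 and KO#2 and written KO 1 and KO 2 here, so that every group holds 1 or 2 libraries and the series 6. Podoplanin is a mucin-like glycoprotein of the cell membrane. The labels do not say how the knockouts were made, whether a KO line is 1 clone, or whether the libraries came from separate cultures, so the tests below see only how these libraries vary, which may be technical or clonal variation. In bulk RNA, fewer cells of a kind and less RNA per cell cannot be told apart.

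Melanosomes are the pigment organelles of melanocytes, and they are built on the pathway that also makes lysosomes. MITF is the transcription factor that drives the pigment genes in melanocytes. PMEL forms the fibrils on which pigment is laid down, and the related enzymes TYR, DCT and TYRP1 make melanin from tyrosine. MLANA (also called MART-1) and GPNMB are membrane proteins of the organelle. RAB38 helps to bring the enzymes to it, and RAB27A with its effector MLPH tethers finished melanosomes to the motor MYO5A. Pigment proteins serve as diagnostic markers of melanoma, also in dogs.

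The libraries held 9732925 to 11807824 counts, and 12270 genes passed the filter on low counts. At this depth 3 counts, the upper limit that a count of 0 allows, correspond to 0.259 to 0.294 CPM (counts scaled by the size of the library, with TMM factors). Levels of different genes are compared below in TPM, the deposited unit that allows for gene length as well as library size. The PDPN transcript of podoplanin itself stood at 20.2 CPM in the CMM2 control and 5.59 and 5.58 CPM in its KO lines, and at 87.8, 15.2 and 9.98 CPM in the CMM12 libraries in the same order. Within CMM2 the counts of KO 2 differed from those of the control with a chi-square of 59.3 per degree of freedom, and from those of KO 1 with 49.6. Between the CMM2 control and KO 1 it was 14.5. The pairs of CMM12 libraries had 33.5 to 47.8, so the lowest value of the series was that of the CMM2 control and KO 1.

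Of the 10 genes, 3 were above 10 TPM in every library: GPNMB, RAB27A and MITF. In CMM2 5 of the other genes had 0 counts in every library, while CMM12 carried RAB38 and TYRP1 in every library as well. Of the 10 genes, 6 stayed under 5 TPM in every library. PMEL was the only further gene above 0 in all 6 libraries. For scale, the median over rows above 0 was 13.4 to 16.1 TPM, by library.

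**Figure D1:**
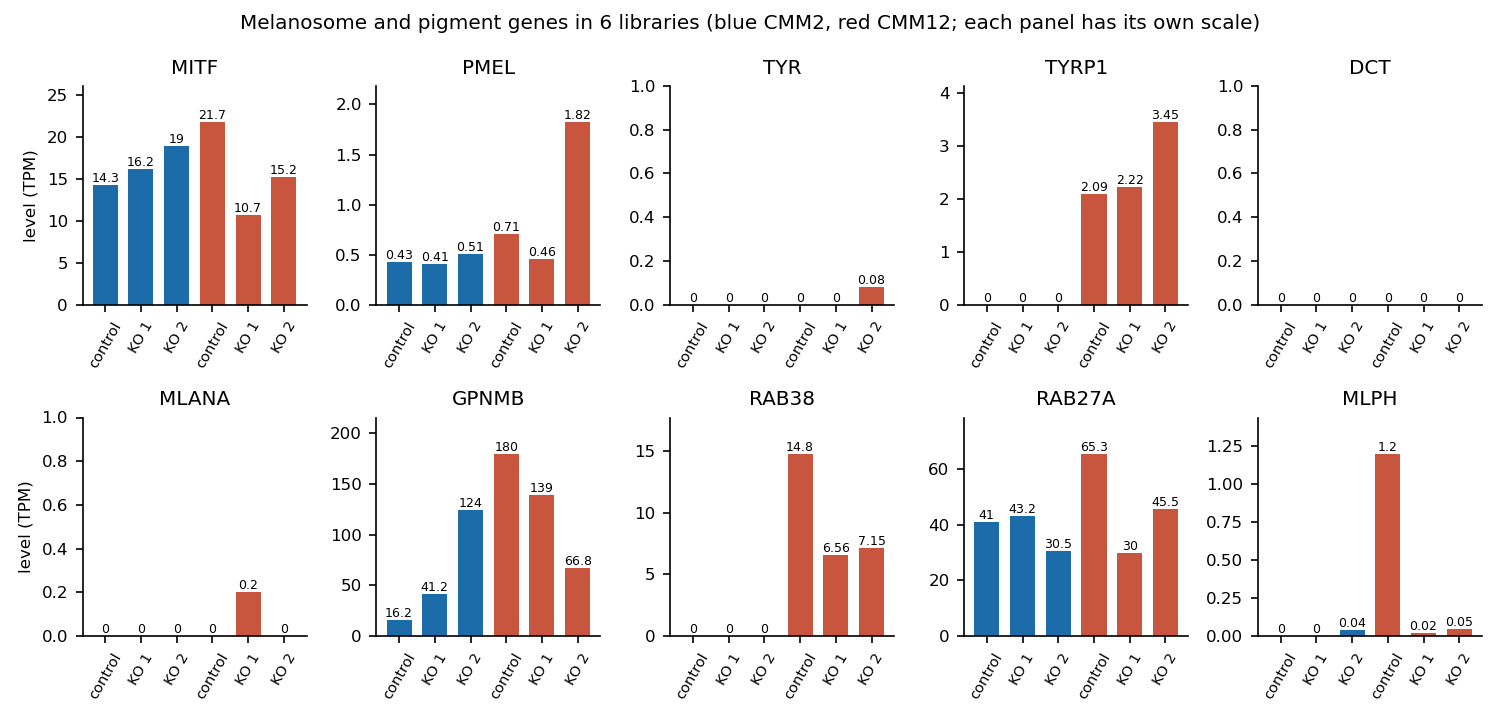
Level of each gene (y axis, TPM, from 0, with a scale of its own in each panel) in the 6 libraries (x axis), CMM2 in blue and CMM12 in red, 1 bar per library with its value. GPNMB, RAB27A and MITF are above 10 TPM in every library, TYRP1 and RAB38 are at 0 in the CMM2 libraries, and TYR, DCT and MLANA hold at most 0.2 TPM.

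MITF (ENSCAFG00000006496) was present at a moderate and similar level everywhere. It stood at 14.3 TPM in the CMM2 control, 16.2 in CMM2 KO 1 and 19.0 in CMM2 KO 2. In CMM12 it stood at 21.7 TPM in the control, 10.7 in KO 1 and 15.2 in KO 2. The lines overlapped, with the highest and the lowest value both in CMM12. These levels lay between the 46.0 and the 57.5 percentile of rows above 0 in their library. The row sums 4 annotated transcripts, so the melanocyte form of MITF cannot be told apart from the forms made in other cells.

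PMEL (ENSCAFG00000000080), the fibril protein, was at 0.43, 0.41 and 0.51 TPM in the CMM2 control, KO 1 and KO 2, from 7, 5 and 8 counts. In CMM12 it was at 0.71 TPM in the control, 0.46 in KO 1 and 1.82 in KO 2, from 12, 7 and 27 counts. CMM12 KO 2 was the highest library, and its level was 3.14 times that of the other CMM12 libraries (95% counting interval 1.68 to 5.97). Intervals given here are exact and cover counting error only. The genes next to PMEL in the RefSeq table, DGKA and CDK2, had 31.7 to 70.3 TPM and 34.2 to 62.3 TPM.

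Of the pigment enzymes, TYR and DCT were not detectable at this depth and TYRP1 was found in CMM12 alone. TYR (ENSCAFG00000004373), the enzyme of the first step of melanin synthesis, had 1 count, in CMM12 KO 2, and 0 in the other libraries. DCT (ENSCAFG00000005323), which converts the intermediate dopachrome, had 0 counts in all 6. TYRP1 (ENSCAFG00000001478) had 0 counts in every CMM2 library. In CMM12 it reached 2.09 TPM in the control, 2.22 in KO 1 and 3.45 in KO 2, from 43, 47 and 62 counts. All 3 CMM12 libraries therefore carried TYRP1 transcript, at a low level, without a detectable level of the enzyme that acts first.

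Among the membrane proteins, MLANA (ENSCAFG00000001354) had 1 count in CMM12 KO 1 and 0 elsewhere. GPNMB (ENSCAFG00000002753), a glycoprotein that is also made in macrophages and bone cells, was the most abundant of the 10 genes in 4 libraries, and RAB27A was in the CMM2 control and CMM2 KO 1. GPNMB stood at 16.2 TPM in the CMM2 control, 41.2 in CMM2 KO 1 and 124 in CMM2 KO 2. In CMM12 it stood at 179.5 TPM in the control, 139 in KO 1 and 66.8 in KO 2. The CMM2 control was the lowest and the CMM12 control the highest library of the series, and the KO libraries lay between them. Within CMM2 the highest library exceeded the lowest 7.46-fold, within CMM12 2.71-fold, both in CPM. Macrophage markers were low in the same libraries, with a summed level of 1.32 to 4.37 TPM in CMM2 and 1.65 to 1.93 TPM in CMM12 over the 4 listed of 5 markers. Of the 6 listed of 7 blood cell markers, PTPRC and CD3E had 0 counts throughout and ITGAM at most 0.11 TPM. CSF1R, a receptor of macrophages, was at 0.03, 0.06 and 0.24 TPM in the CMM2 control, KO 1 and KO 2. In the CMM12 libraries CSF1R was at 0.27, 1.07 and 1.71 TPM (edgeR adjusted p between lines 0.0185). It passed the filter on low counts through CMM12 alone, so this p supports nothing. LAPTM5, a lysosomal protein of blood cells, was at 2.53 and 5.27 TPM in the CMM2 control and KO 1. It was at most 0.17 TPM in the other libraries. The part of these cells in the level of GPNMB was not tested.

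The traffic genes differed widely in level. RAB27A (ENSCAFG00000015916), a small GTPase of secretory organelles in many cells, was at 41.0, 43.2 and 30.5 TPM in the CMM2 control, KO 1 and KO 2 and at 65.3, 30.0 and 45.5 TPM in the CMM12 libraries in that order. The lines overlapped. RAB38 (ENSCAFG00000004387) had 0 counts in every CMM2 library and 14.8 TPM in the CMM12 control, 6.56 in KO 1 and 7.15 in KO 2. MLPH (ENSCAFG00000012236), the link between RAB27A and the motor, was at 1.2 TPM in the CMM12 control, from 57 counts. It had 1 and 2 counts in CMM12 KO 1 and KO 2, 2 counts in CMM2 KO 2 and 0 in the other CMM2 libraries. MYO5A, the motor itself, was at 30.0 to 52.1 TPM. Of the 3 parts of the tether, RAB27A and MYO5A were thus present in every library, and MLPH was near the limit of detection in all but the CMM12 control.

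RAB38 and TYR lie close together: in the RefSeq table of the assembly UU_Cfam_GSD_1.0 the protein-coding genes follow each other as TYR, GRM5, CTSC and RAB38. GRM5, a glutamate receptor, had 0 counts in all libraries, and CTSC, a lysosomal protease, had 15.2 to 34.8 TPM in both lines. In this neighbourhood RAB38 was at 0 in CMM2 and present in CMM12, CTSC overlapped between the lines, and TYR and GRM5 stayed at or near 0. In that table RAB38, RAB27A and MLPH each overlap a long non-coding RNA, and without a stated strand setting the reads of both cannot be told apart.

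In the order of TPM, GPNMB, RAB27A and MITF held the first 3 places in each library. In CMM2 the range of GPNMB over the 3 libraries overlapped those of RAB27A and MITF, so that its place is not set beyond the spread. In CMM12 GPNMB lay above RAB27A with no overlap, at 66.8 TPM or more against 65.3 or less. RAB27A lay above MITF with no overlap in both lines. RAB38 followed MITF in each CMM12 library, with overlapping ranges over the libraries, and lay above TYRP1 with no overlap. In CMM2 PMEL came next after MITF in each library.

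The comparison of CMM12 with CMM2, 3 libraries against 3, asks how the lines differ with the genotype held fixed. TYRP1 and RAB38 were higher in CMM12 and MITF, RAB27A, PMEL, GPNMB and MLPH were not called. RAB38 had 8.53 ± 3.90 CPM in CMM12 (SD, n = 3) and was at least 30.7-fold higher than in CMM2, where the fold is computed against a floor of 3 counts per library. TYRP1 had 4.69 ± 1.23 CPM (SD, n = 3) and was at least 16.9-fold higher on the same footing. The edgeR quasi-likelihood test gave a Benjamini-Hochberg adjusted p of 0.00181 for RAB38 and 0.00376 for TYRP1, and DESeq2 gave 2.17e-10 and 9.95e-08. Both were above 0 in each CMM12 library and at 0 in each CMM2 library, so that 2 of the 7 tested members had every CMM12 library above every CMM2 library (24.6% of all genes) and 0 every one below (21.5%). They passed the filter on low counts through CMM12 alone, so among tested genes they had to differ. Of all 12270 genes tested, 14.6% were called higher in CMM12 and 11.2% lower, and 3.11% had 0 counts in every CMM2 library. With 2 of 7 members called, and in all genes 25.8%, the share of members called was near the background.

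MITF, at 16.5 ± 2.33 TPM in CMM2 and 15.9 ± 5.55 TPM in CMM12 (SD, n = 3 each), had a log2 difference of −0.23 (SE 0.27, edgeR adjusted p 0.559). RAB27A, at 38.2 ± 6.79 and 46.9 ± 17.7 TPM (SD, n = 3 each), had one of 0.11 (SE 0.25, edgeR adjusted p 0.779). For both genes the difference was smaller than its error. PMEL had a log2 difference of 1.17 (SE 0.77, edgeR adjusted p 0.293). GPNMB, at 60.5 ± 56.5 and 128 ± 57.1 TPM (SD, n = 3 each), had one of 1.16 (SE 0.74, edgeR adjusted p 0.278), with overlapping lines. Without CMM2 KO 2, a fit with 1 KO library left in CMM2, the difference was 2.04 for GPNMB and 7.65 for MLPH. Over the 6 fits that left out 1 library the adjusted p ran from 0.0355 to 0.807 for GPNMB. For MLPH the difference with all libraries was 3.44 (SE 1.72, edgeR adjusted p 0.178), and it was 0.57 without the CMM2 control (edgeR adjusted p 0.82, the highest of 5 such fits). Without the CMM12 control MLPH had too few counts to be tested. Its counts lie mostly in the CMM12 control, whose 57 counts stood against 2 over all CMM2 libraries, a ratio of 79.9 (counting interval 21.1 to 676). Since MLPH passed the filter on low counts through that control alone, its difference between lines, p and this ratio support nothing. The CMM12 KO libraries, with 3 counts in all, were 2.30 times the CMM2 level with a counting interval of 0.264 to 27.5.

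The comparison of KO libraries with the control of their own line asks what moved with the loss of podoplanin. GPNMB and MITF were higher than the control in both CMM2 KO libraries and lower in both CMM12 KO libraries, and none of the 7 members passed in any KO comparison. GPNMB stood at 33.0 CPM in the CMM2 control and at 83.0 and 247 CPM in KO 1 and KO 2, which is 2.51 and 7.46 times the control. In CMM12 it went from 322 CPM to 270.1 and 119 CPM, 0.839 and 0.368 times the control. The direction was thus opposite in the lines, and KO 2 was farther from the control than KO 1 in both. The fitted change was 2.32 on the log2 scale in CMM2 (SE 0.79, edgeR p 0.0235, adjusted p 1) and −0.73 in CMM12 (SE 0.67, edgeR adjusted p 0.92).

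**Figure D2:**
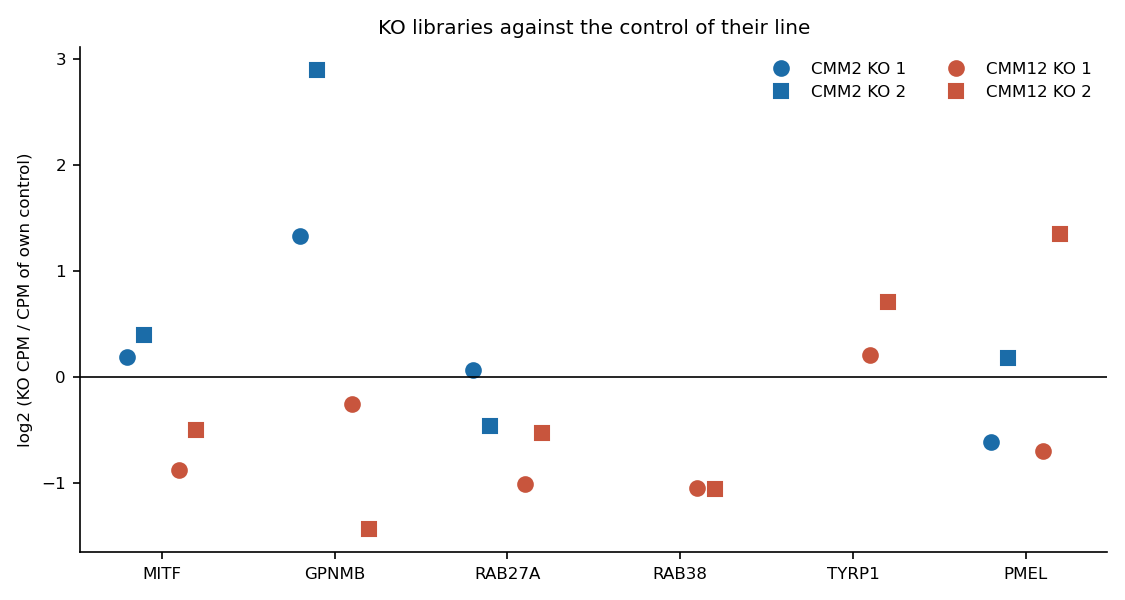
Log2 ratio of the CPM of each KO library to the CPM of the control of its line (y axis, 0 is no difference) for the 6 genes with more than 3 counts in both libraries (x axis), CMM2 in blue, CMM12 in red, circles for KO 1 and squares for KO 2. GPNMB and MITF lie above 0 in CMM2 and below 0 in CMM12, RAB38 lies near −1.05 in both CMM12 KO libraries, and RAB38 and TYRP1 have no CMM2 points because CMM2 has 0 counts.

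MITF differed less from its controls than GPNMB did in the CMM2 libraries. It was at 21.2 CPM in the CMM2 control and 24.1 and 27.9 CPM in its KO lines, and at 28.4 CPM in the CMM12 control and 15.4 and 20.1 CPM in its KO lines. The KO libraries thus held 114% and 132% of the control in CMM2, and 54.3% and 70.7% in CMM12. The log2 change was 0.29 in CMM2 (SE 0.33, edgeR adjusted p 1) and −0.68 in CMM12 (SE 0.32, edgeR adjusted p 0.843). The difference of both KO effects, CMM12 minus CMM2, was −0.97 for MITF (SE 0.47, edgeR p 0.0776) and −3.04 for GPNMB (SE 1.02, edgeR p 0.0218), and the adjusted p was 1 for each. Of all genes tested, 10.2% lay above the control in both CMM2 KO libraries and below it in both CMM12 KO libraries, as these 2 genes did. Of the 9 fibroblast markers, COL3A1 and COL1A1, collagens of connective tissue, lay on the same sides. COL3A1 stood at 55.9, 157 and 1246 TPM in the CMM2 control, KO 1 and KO 2 and at 517, 61.6 and 139 TPM in the CMM12 libraries. COL1A1 stood at 229, 391 and 520.1 TPM and at 177, 1.33 and 19.3 TPM in the same order. COL1A2 and LUM did so too in TPM, and all 4 were chosen after their values were seen. The other fibroblast markers did not. THY1, PDGFRA and PDGFRB lay above the CMM12 control in both CMM12 KO libraries. THY1 stood at 115, 131 and 313 TPM in the CMM12 control, KO 1 and KO 2, and PDGFRA at 10.2, 11.5 and 20.8 TPM. DCN and FAP split between the CMM12 KO libraries. The part of fibroblast markers in the values of GPNMB and MITF was not tested.

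In CMM12 the traffic genes were lower in the KO libraries than in the control, with none called. RAB38 stood at 13.0 CPM in the control, from 151 counts, and 6.29 and 6.26 CPM in KO 1 and KO 2, from 69 and 64 counts, so the KO libraries were alike and held 48.3% and 48.1% of the control. The counting interval of the ratio of control to KO, 2.08, was 1.63 to 2.64, which leaves out the spread between libraries (log2 change −1.05, SE 0.55, edgeR adjusted p 0.852). RAB27A went from 42.9 to 21.3 and 29.8 CPM (log2 −0.75, SE 0.36, edgeR adjusted p 0.843). MLPH went from 4.92 CPM to 0.0912 and 0.196, a ratio of 34.7 in counts (57 against 3, counting interval 11.3 to 173) and the smallest p of the members in CMM12 (edgeR p 0.0062, adjusted p 0.702). Of all genes tested, 0.75% were at 10% of the CMM12 control or less in both CMM12 KO libraries, as MLPH was. MLPH passed the filter on low counts through the CMM12 control alone. Among tested genes it therefore had to lie below that control, and its ratio and p support nothing. Some markers of other cell types were also highest in the CMM12 control: the keratin KRT14 at 13.0 TPM against 0.06 and 0.75 in KO 1 and KO 2, LUM, of connective tissue, at 10.7 against 0.27 and 0, and the endothelial receptor KDR at 2.12 against 0.09 and 0.5. Other markers of the same lists were lowest in that control within CMM12. KRT18 was at 0 TPM against 0.17 and 0.98 in KO 1 and KO 2, THY1 at 115 against 131 and 313, and VWF at 0.26 against 0.61 and 0.88. These were chosen after their values were seen, and their part in the level of MLPH was not tested. Each of these values rests on the single CMM12 control, so a library that is high for its own reasons and a loss with the knockout cannot be told apart.

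TYRP1 alone lay above the CMM12 control in both KO libraries. It had 3.71 CPM in the control, 4.29 in KO 1 and 6.07 in KO 2 (log2 0.48, SE 0.74, edgeR adjusted p 0.961). Its counting intervals overlapped between control and KO 1, at 2.69 to 5.0 and 3.15 to 5.70 CPM. Of the 7 tested members, 5 lay below the control in both CMM12 KO libraries (background 34.2%) and 1 above (35.6%), while in CMM2 2 lay above in both (30.1%) and 0 below (30.9%). The 5 include MLPH, which had to lie below the CMM12 control by the way it passed the filter, so that count is partly fixed. The CMM2 members on neither side were PMEL and RAB27A, which split, and TYRP1, RAB38 and MLPH, at or under the floor of 3 counts.

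Across lines, with the line as a term of the model, the log2 difference was −0.22 for MITF (SE 0.28), −0.47 for RAB27A (SE 0.26), 0.27 for PMEL (SE 0.82) and 0.50 for GPNMB (SE 0.79), each with an edgeR adjusted p of 0.987. The edgeR test called 0 of 7 members across lines (1, MLPH, at an unadjusted p under 0.05), 0 in CMM2 (1, GPNMB), 0 in CMM12 (1, MLPH) and 0 for the difference of effects (2, MLPH and GPNMB), and DESeq2 called 0 in each. MLPH passed the filter on low counts through the CMM12 control alone, so its p-values here support nothing. Over all genes edgeR called 0%, 0%, 0.00815% and 0% in these comparisons, and DESeq2 0.0733%, 0.0489%, 0.326% and 0.179%. A miss at these numbers does not show that a gene stayed the same. For RAB27A in CMM2, 2 SE on either side of the log2 change reach from −0.91 to 0.56, and for GPNMB in CMM12 from −2.08 to 0.62.

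The labelled cell type was checked against 13 melanocyte-lineage markers that are not among the 10 genes. Of these, 8 stayed under 1 TPM in every library, among them SOX10, KIT, EDNRB, ERBB3 and S100B, and 3 of the 8, KIT, CDH19 and TRPM1, had 0 counts throughout. SOX10, the transcription factor that keeps MITF on in melanocytes, reached 0.07 TPM in 1 library. Of the defining markers of the lineage, SOX10, KIT, EDNRB, MLANA, TYR and DCT were thus at or near 0 in both lines. Above 5 TPM in every library were TFAP2A, a transcription factor of the neural crest, at 8.05 to 23.9 TPM, and SLC45A2, a melanosome transporter, at 23.2 to 31.8 TPM. SLC45A2 lies next to AMACR in the RefSeq table, and its level may not be its own: whether the row takes reads of a neighbour was not tested. PAX3, another activator of MITF, had 1.58 to 3.28 TPM in CMM12 and at most 0.22 in CMM2. S100A1 and OCA2 passed 1 TPM in some libraries.

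**Figure D3:**
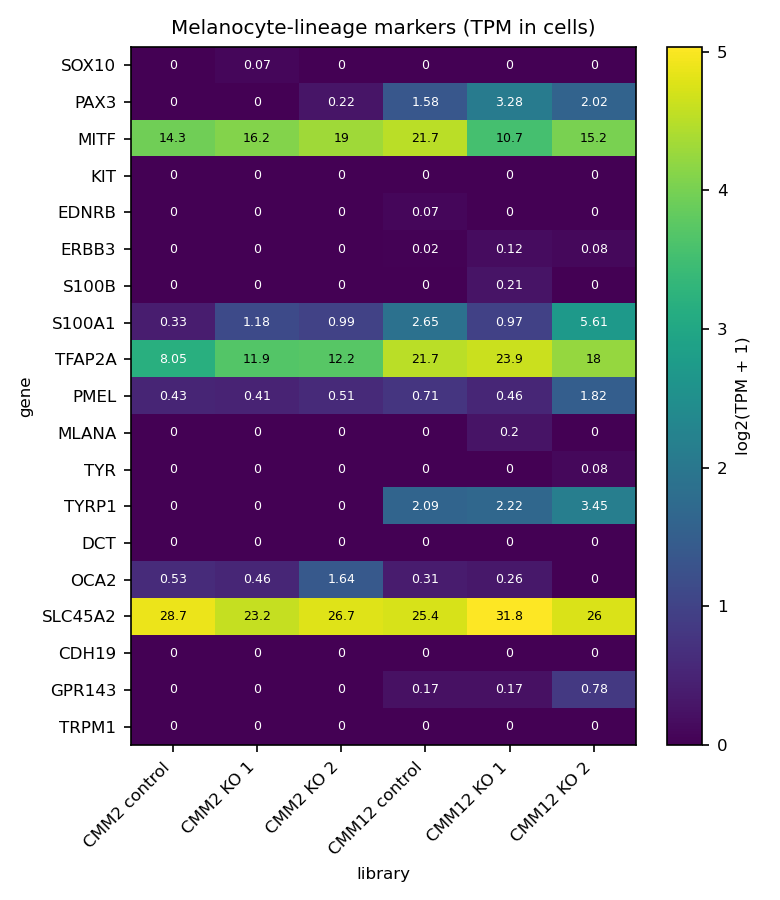
Melanocyte-lineage markers (rows, with the 6 of the 10 genes that are on the list) in the 6 libraries (columns), coloured by log2(TPM + 1) with the TPM written in each cell. The rows of SLC45A2 (which may take reads of a neighbour), MITF and TFAP2A are at 5 TPM or more in every library, PAX3 and TYRP1 appear in CMM12, and SOX10, KIT and DCT are at or near 0 throughout.

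Markers of other cell types gave the following levels. Fibroblast markers had a summed level of 343 to 2779 TPM in CMM2 and 951 to 2299.7 TPM in CMM12, but the CMM2 sum was nearly all collagen (COL1A1, COL1A2, COL3A1) and PDGFRA. In CMM2 DCN, LUM and FAP were at 0.59 TPM or less, PDGFRB at 0.56 to 1.42 TPM and THY1 at 0, and in CMM12 THY1 was at 115 to 313 TPM. The 7 listed of 10 epithelial and keratinocyte markers summed to 1.61 to 2.89 TPM in CMM2 and 1.45 to 15.7 TPM in CMM12, with the top in the control, and endothelial markers to at most 2.42 TPM. Smooth muscle markers summed to 11.4 to 17.0 TPM in CMM2 and 16.2 to 123 TPM in CMM12. The B cell marker CD79A was listed at 3150.4 to 4542 TPM. In the RefSeq table it is followed by the ribosomal protein gene RPS19, and this level may not be that of CD79A: whether the row takes reads of a neighbour was not tested. The part of these markers in the levels of the pigment genes was not tested.

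Of the 32 genes of melanosome cargo sorting, 29 were listed and all of these were tested, and 3 were called higher and 5 lower in CMM12, beside 25.8% called of all genes. Their median log2 difference was −0.32, against 0.04 over all genes. AP3S1, a subunit of the adaptor that sorts cargo to melanosomes, rose by 1.35 in CMM12 (SE 0.17, edgeR adjusted p 0.00254). STX3, a membrane fusion protein, rose by 1.17 (SE 0.32, edgeR adjusted p 0.0352). AP1S1, of a second adaptor, fell by 1.24 (SE 0.20, edgeR adjusted p 0.00569) and VPS33B, of a vesicle tethering complex, by 1.14 (SE 0.21, edgeR adjusted p 0.0088). RAB32, the close relative of RAB38 that shares its role in enzyme delivery, was at 28.3 to 42.4 TPM in CMM2, where RAB38 was at 0, and at 20.5 to 25.7 TPM in CMM12 (log2 −0.81, edgeR adjusted p 0.0396). RAB32 was chosen after its values were seen.

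Of the channels and transporters, 8 of 11 were tested, with 1 called lower (11.2% of all genes) and a median log2 difference of −0.70. That gene was TPCN2, a calcium channel of the organelle, which fell by 2.42 in CMM12 (SE 0.26, edgeR adjusted p 0.00164), from 10.5 to 12.1 TPM in CMM2 to 1.87 to 3.05 TPM. Of 18 genes of melanosome transport and Rab27 effectors, 13 were tested and 0 called by edgeR (4 at an unadjusted p under 0.05, and 2 called by DESeq2), with a median of −0.03. The effector SYTL1 differed by −2.08 (SE 0.70, edgeR adjusted p 0.0653) and RPH3AL by 2.39 (SE 0.77, edgeR adjusted p 0.0562). RPH3AL had 7 counts over the CMM2 libraries and passed the filter on low counts through CMM12 alone. Among tested genes it had to differ, so its difference and p support nothing. RAB27B, the close relative of RAB27A, had 0 counts in all libraries (chosen after its values were seen).

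Among the regulators upstream of MITF and its family, 14 of 19 were tested, 5 were called higher in CMM12 and 3 lower (14.6% and 11.2% of all genes), and the median was 0.51. PAX3 rose by 4.95 (SE 0.99, edgeR adjusted p 0.0118), with 6 counts over the CMM2 libraries. SOX9, a neural crest factor, had 0 counts in CMM2 and 0.27 to 3.1 TPM in CMM12 (edgeR adjusted p 0.037). SOX9, like CEACAM1 and NGFR below, has 0 counts in CMM2. PAX3, and TBX2 below, have 6 and 2 counts over the CMM2 libraries. SOX9, CEACAM1, NGFR, PAX3 and TBX2 passed the filter on low counts through CMM12 alone, so among tested genes they had to differ. Their calls and p-values support nothing. TFEB, a relative of MITF that drives lysosome genes, rose by 1.04 (SE 0.32, edgeR adjusted p 0.0481), and SNAI2, a repressor of epithelial genes, fell by 1.23 (SE 0.26, edgeR adjusted p 0.0137). SOX10 was not tested, for lack of counts.

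**Figure D4:**
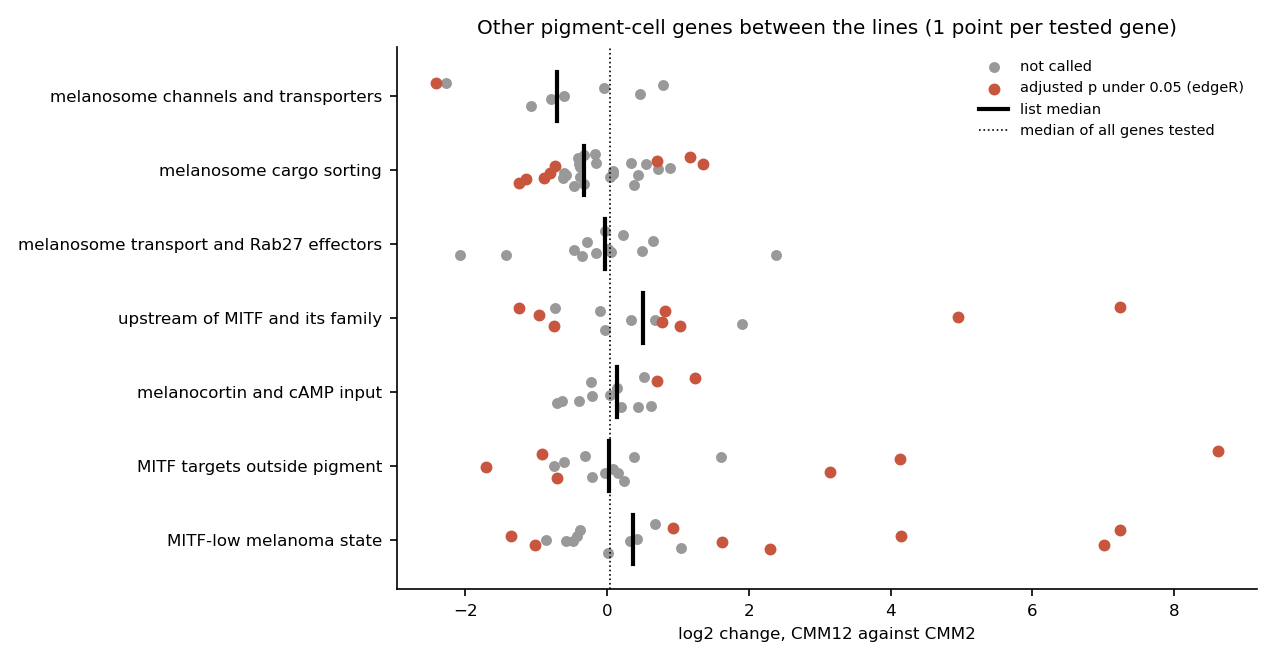
Log2 difference between CMM12 and CMM2 (x axis) of each tested gene of 7 lists (y axis), in red where edgeR's adjusted p was under 0.05 and in grey otherwise, with the median of each list as a thick line and that of all genes (0.04) as a dotted line. Called genes lie on both sides of 0 in the sorting list (3 higher, 5 lower), and the farthest points to the right are genes with few or no counts in CMM2.

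Of the genes listed as MITF targets outside pigment 16 of 24 were tested, with 3 called higher, 3 lower (14.6% and 11.2% of all genes) and a median of 0.03. CEACAM1, an adhesion molecule, had 0 counts in CMM2 and 3.45 to 3.58 TPM in CMM12 (edgeR adjusted p 0.00362). RRAGD, a GTPase of lysosomal nutrient sensing, rose by 3.15 (SE 0.87, edgeR adjusted p 0.0352) and TBX2, a transcription factor, by 4.14 (SE 1.17, edgeR adjusted p 0.0384), with 2 counts over the CMM2 libraries. SCD, a fatty acid desaturase, fell by 1.70 (SE 0.37, edgeR adjusted p 0.016). In the list of the melanoma state with low MITF, all 18 genes were tested, 6 were called higher, 2 lower (14.6% and 11.2% of all genes) and the median was 0.37. NES, an intermediate filament gene, rose by 4.15 (SE 0.43, edgeR adjusted p 0.00148) and NT5E, a nucleotidase, by 2.30 (SE 0.47, edgeR adjusted p 0.0126). NGFR, a neurotrophin receptor, had 0 counts in CMM2 and 0.03 to 0.66 TPM in CMM12 (edgeR adjusted p 0.0279). AXL, a receptor kinase of the same list, was at 139 to 297 TPM in all libraries and fell by 1.01 in CMM12 (edgeR adjusted p 0.013; chosen after its values were seen).

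The melanocortin receptor MC1R itself was not analysed here. Its ligands POMC and ASIP had 0 counts in all libraries, 13 of 17 genes were tested and 2 were called higher in CMM12 (14.6% of all genes), with a median of 0.14. GNAS, the stimulatory G protein, rose by 0.70 (SE 0.15, edgeR adjusted p 0.0155) and PDE4B, which breaks down cAMP, by 1.24 (SE 0.26, edgeR adjusted p 0.014).

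The 7 lists held 110 different tested genes, and edgeR called 0 of them in each KO comparison. At an unadjusted p under 0.05 edgeR had 1 across lines, 2 in CMM2, 7 in CMM12 and 7 for the difference of effects, and DESeq2 called 0, 0, 2 and 3. The medians across lines were 0.12 for channels, −0.01 for sorting, −0.01 for transport, 0.27 for regulators of MITF, 0.05 for melanocortin input, −0.04 for MITF targets and 0.02 for the state with low MITF, against 0.01 for all genes. The smallest unadjusted p across lines belonged to SYTL4, a Rab27 effector, at 1.44 (SE 0.39, edgeR p 0.00731, adjusted p 0.987). It went from 1.66 TPM in the CMM2 control to 3.69 and 5.46, and from 1.34 TPM in the CMM12 control to 2.65 and 4.61, so that all 4 KO libraries lay above their control. Of all genes tested, 30.1% lay above the control in both CMM2 KO libraries and 35.6% in both CMM12 KO libraries. The share above in all 4 KO libraries was not computed, and SYTL4 was picked by its p, so its direction supports nothing. TFE3, another relative of MITF, had a log2 difference of 0.52 (SE 0.23, edgeR p 0.0514) and the melanosome transporter gene MFSD12 by 0.70 (SE 0.30, edgeR p 0.0512), both with an adjusted p of 0.987. CD63, a membrane protein that takes part in PMEL sorting, had 0.39 (SE 0.17, edgeR p 0.0557), SCD had −0.63 (SE 0.38, edgeR p 0.14), CRTC1, a coactivator of the cAMP response, had 0.40 (SE 0.20, edgeR p 0.0859) and PDGFRB, a growth factor receptor, had 1.09 (SE 0.52, edgeR p 0.0714). Also among the 2 smallest p of their lists, KIF5B had −0.35 (edgeR p 0.0597), AP1S1 −0.40 (edgeR p 0.0885) and BCL2 −0.89 (edgeR p 0.151). On the other side, ATRN had 0.43 (edgeR p 0.114), ZEB2 0.28 (edgeR p 0.157) and CTNS 0.34 (edgeR p 0.264). NGFR had 3.41 (edgeR p 0.0685), but it passed the filter on low counts through CMM12 alone, so its p supports nothing.

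The genes most like each member were found as those with the smallest root mean square difference in log2 CPM over the 6 libraries, each centred on its own mean, among 10773 genes. For GPNMB the nearest was CHAC1, which degrades glutathione, at a difference of 0.136. CHAC1 had 1.15, 2.71 and 8.42 CPM in the CMM2 control, KO 1 and KO 2 and 12.2, 8.57 and 3.42 CPM in the CMM12 libraries in that order, so that it was lowest in the CMM2 control and highest in the CMM12 control, as GPNMB was. It was the only gene within 0.25 of GPNMB. The next were ZNF135, at 0.349, and DNASE1L2, at 0.380. MITF had 659 genes within 0.25, the nearest being BCAR1 at 0.0501, POGLUT1 and RPUSD1, and RAB27A had 325, led by ENOPH1 at 0.0919, LRRC8B and RNF138. TYRP1 had 10 and RAB38 had 4, led by BICDL1 at 0.148 (then STK26) and by ARMCX4 at 0.169 (then MS4A13 and NPTX2), all of them with 0 counts in CMM2. PMEL had 5, the nearest of them PLEKHG6 at 0.171, and NQO1 was second, with 1001 CPM in CMM12 KO 2 against 250 to 465 in the other libraries. MLPH had none within 0.25, and CCN4 was nearest at 0.361, then MEGF6 and NDST4, each highest in the CMM12 control. These likenesses rest on 6 libraries of 2 lines and are a description.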

How the data were processed

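The 6 libraries were made with a NEBNext Ultra RNA LP Kit, as the labels' protocols say. The submitters' processing notes list the build CanFam3.1 and the tools RSEM 1.3.3 and STAR 2.7.3a. No source used here gives the strand setting, so overlapping genes, antisense genes and near-identical copies cannot be told apart. Expected counts per gene, unscaled, were deposited by the authors, per the file headers. Rounding them here changed 3.22% to 3.62% of the values. TPM values were likewise deposited by the authors, per the file headers. Rows that carry no symbol were kept, with 7.89% to 8.85% of the counts.

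All tests ran over the whole table with edgeR 4.0.16 in R 4.3.3 (glmQLFit and glmQLFTest, TMM factors, filterByExpr, Benjamini-Hochberg adjustment over 12270 genes, threshold 0.05). Line and genotype as additive terms (residual degrees of freedom 3) gave the contrasts between lines and of KO across lines. The 4 group means (residual degrees of freedom 2) gave the KO contrasts within a line and their difference, where the lone control is assumed to vary like the KO pairs. SE is the log2 change divided by the root of the F statistic. Alternatives were DESeq2 1.42.0, median-of-ratios factors, other filters, limma 3.58.1 with a trend on log2(TPM + 1) and log2(TPM + 0.1), other models, and leaving out each library. The fits were tested on simulated data. The members and gene lists were chosen with earlier results of these data known. Named were all 10 members, PDPN and the lineage markers. From each list the rule took up to 4 called genes with the largest difference between lines (or the 2 smallest p where none was called) and the 2 smallest p across KO, and for each tested member the 3 genes most like it. A lineage marker and a gene of the likeness search are not reported here and were left out of the marker counts and of that search. The RefSeq gene table, used for neighbours only, is of another build, so no coordinates are given, and sequences were not used here.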

Additional observations from a re-analysis of the deposited data

Results flagged for a closer look

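GPNMB and MITF moved in opposite directions in the KO libraries of the lines: every KO library of CMM2 lay above its control and every KO library of CMM12 below. The difference of the KO effects on the log2 scale, CMM12 minus CMM2, was −3.04 for GPNMB (edgeR p 0.0218, adjusted p 1) and −0.97 for MITF (edgeR p 0.0776, adjusted p 1). It did not pass the test for either gene. Of all genes tested, 21.2% had KO libraries on opposite sides of the controls in the lines, in either order.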

How the results depend on the processing

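The calls of RAB38 and TYRP1 between lines held in every alternative run, and edgeR's 2 members called stayed 2 in all but one: without CMM2 KO 2 there were 4, GPNMB and MLPH added (range 2 to 4 without 1 library). All genes called between lines ranged from 1499 to 3096 without 1 library, against 3170, and were 1680 without the CMM2 control, 1499 without CMM2 KO 1, 1717 without the CMM12 control and 1690 without CMM12 KO 2, each with fewer samples. On log2(TPM + 1) they split into 2004 higher and 934 lower, against 1792 and 1378, and the median of all genes moved from 0.04 to 0.15. RAB38 and TYRP1 have 0 counts in every CMM2 library and passed the filter on low counts through CMM12 alone. That their calls held in these runs therefore supports nothing. MLPH passed that filter through the CMM12 control alone, so its added call supports nothing either.

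For KO across lines the count of all genes called went from 0 to 9 by DESeq2, 15 with no filter, 3 on log2(TPM + 1), 2 on log2(TPM + 0.1) and 1 with the replicate block, and 0 to 1 without 1 library (1 without CMM12 KO 1 or CMM12 KO 2). In CMM2 it went from 0 to 6 by DESeq2 and 1 with no filter, and 0 to 1 without 1 library (1 without CMM12 KO 1 or CMM12 KO 2). In CMM12 it went from 1 to 40 by DESeq2, 26 with no filter, 75 on log2(TPM + 1) with no filter, and 0 with at least 1 CPM in 2 libraries, on log2(TPM + 1) and on log2(TPM + 0.1). Without 1 library it ranged from 0 to 14, with 5 without CMM12 KO 1, 14 without CMM12 KO 2, and 0 without the CMM2 control, CMM2 KO 1 or CMM2 KO 2. For the difference of effects it went from 0 to 22 by DESeq2 and 2 with no filter, and 0 to 1 without 1 library (1 without CMM12 KO 2). The cause was not tested. Members called in a KO comparison were 0 in each alternative, except 1 in CMM12 on log2(TPM + 1) with no filter, where MLPH had −1.09 (limma adjusted p 0.0428). That value too rests on the single CMM12 control.

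Of 202 values of members under other settings 3 changed direction, all PMEL in CMM2, at 0.029 on log2(TPM + 1) with and without a filter and 0.074 on log2(TPM + 0.1). Leaving out 1 library gave, for results that turned, −0.084 to 0.33 for RAB27A between lines, and across KO −0.68 to 0.29 for MITF, −0.40 to 0.65 for PMEL and −0.73 to 2.32 for GPNMB, where leaving out a control leaves the effect of the other line. It gave −0.60 to 0.18 for PMEL and −0.46 to 0.062 for RAB27A in CMM2, −0.69 to 1.34 for PMEL in CMM12 and −0.52 to 1.51 for PMEL in the difference.

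KO numbers do not pair the libraries: the labels do not tie KO 1 of the lines together, and KO 1 minus KO 2 correlated between lines across 12270 genes at r = 0.0606. With the KO number as a block, RAB38 and TYRP1 remained called between lines (edgeR adjusted p 0.00432 and 0.00789), and edgeR called 2 members. Both genes passed the filter on low counts through CMM12 alone, so these calls support nothing.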
